A study of Mus musculus with 8 samples.

Results

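Ribosome biogenesis is the assembly of the cytoplasmic ribosome in the nucleolus. RNA polymerase I transcribes the precursor of the ribosomal RNAs, small nucleolar ribonucleoproteins guide its chemical modification and cleavage, and many assembly factors fold and trim it into the small and the large ribosomal subunit. T cells that receive an antigen receptor signal are known to enlarge, and transcripts of this machinery, many of them targets of the transcription factor MYC, are known to increase in growing cells. The 37 genes described here encode proteins of this machinery and were taken by their symbols from the 52459 genes listed in the expression table. All 37 were present, and all 37 were among the 15419 genes that were tested because their mean reached 10 normalized counts.

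RNA was measured in regulatory T (Treg) cells of C57BL/6 mice with and without STIM1 and STIM2, the calcium sensors of the endoplasmic reticulum that activate store-operated calcium entry. CD4+CD25hi cells were sorted from spleen and lymph nodes of several pooled healthy female mice per sample that were heterozygous for the X-linked Foxp3-YFPcre allele and carried floxed Stim1 and Stim2. WT cells were YFPcre-, carried the floxed alleles without expressing Cre, and DKO cells were YFPcre+ and are labelled Stim1/2-deficient, so that the genotype is bound to expression of the Cre fusion in Foxp3+ cells. Each of 4 groups had 2 libraries: unstimulated WT (replicates 3 and 4), unstimulated DKO (replicates 1 and 2), and WT and DKO cells kept for 16 h on plate-bound anti-CD3/CD28 at 1 µg/ml (replicates 1 and 2 each). Unstimulated libraries ran on one sequencing lane and stimulated libraries on another, so stimulation, lane and culture cannot be told apart.

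A normalized count is the number of reads on a gene divided by 1 size factor per library. Libraries held 11851853 to 16306540 reads on genes, 1 read was worth 0.759 to 1.48 normalized counts, and normalized totals were 12113314 to 12497477 in stimulated and 15559047 to 17597277 in unstimulated libraries, as the deposited scaling left them.
Without stimulation, the normalized counts of Stim1 were 1538 and 1868 in DKO against 1139 and 1377 in WT libraries, and those of Stim2 were 904 and 744 against 906 and 908. Neither was called between genotypes in either state, and the table holds no counts by exon that would show a deletion. The study reported that YFP+ Treg cells of such heterozygous females lacked store-operated calcium entry. It also reported loss of Stim1 and Stim2 expression by RT-PCR in Treg cells of male mice. Because the counts per gene do not show the deletion, DKO stands for the label throughout, and a difference between genotypes is DKO minus WT by those labels.
The 7 Treg and T cell markers, Foxp3 and Cd3e among them, were detected in every library. Their summed level was 42374 and 49397 normalized counts in unstimulated DKO and 94553 and 87840 in unstimulated WT libraries. All 7 had estimates below 0 in that comparison, with a median log2 fold change of -0.65, and Ctla4 and Ikzf2 were called lower. Ctla4 differed most in normalized counts, with 37403.5 and 35119 in WT and 6338 and 17333 in DKO libraries. Cd3e, with 3424 and 3294 against 3042 and 3156, and Cd4, with 10760 and 8918 against 10363 and 7005, differed less. The libraries of Cd4 overlapped. In unstimulated DKO replicates 1 and 2, the summed level of 10 macrophage and myeloid markers was 10035 and 1472 normalized counts, against 194 to 253 in the other 6 libraries. That of 8 B cell markers was 2904 and 678 in unstimulated DKO libraries, 220.1 and 253 in unstimulated WT libraries and 171 to 1313 after stimulation. These values accompany the comparison of unstimulated genotypes below. They also accompany the stimulation changes in DKO cells and the interaction, which use the same unstimulated DKO libraries. With stimulation in DKO cells, 9 of the 10 macrophage and myeloid markers were called lower, with a median log2 fold change of -5.38. The part of these other cells in the stimulation changes of DKO cells was not tested.

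Promoter windows from RefSeq, on GRCm38.p6, were at hand for 32 of the 37 genes, 36 windows in all, each from 250 bases before to 50 bases past the start of a transcript. GRCm38 is the mm10 assembly that the submitters' processing notes name, whereas the methods of the study name NCBIM37, and no count depends on these positions. CACGTG, the E-box to which MYC with its partner MAX binds, was searched on both strands and stood in 6 of 36 windows (16.7%), against 7.15% of all 32851 windows. The 4 windows with the largest stimulation changes in WT among those 6 are shown because the stimulation response of these genes is the main subject below, with the E-box in capitals and all sequences from 5′ to 3′ on the strand of the gene.
Nop2 has its window on the plus strand of chr6:125131633-125131932, with the E-box beginning 60 bases before the start. That of Utp20 is on the minus strand of chr10:88826765-88827064, with the E-box 37 bases past the start. Mybbp1a, on the plus strand of chr11:72441077-72441376, has it 40 bases past the start, and Pes1, on the plus strand of chr11:3963725-3964024, 2 bases past it.
Nop2: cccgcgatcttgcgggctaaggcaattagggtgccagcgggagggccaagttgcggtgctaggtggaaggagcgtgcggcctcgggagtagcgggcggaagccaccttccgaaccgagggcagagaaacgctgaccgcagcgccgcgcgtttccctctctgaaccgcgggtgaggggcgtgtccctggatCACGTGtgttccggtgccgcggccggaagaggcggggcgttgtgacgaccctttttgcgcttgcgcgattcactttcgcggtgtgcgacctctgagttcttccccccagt
Utp20: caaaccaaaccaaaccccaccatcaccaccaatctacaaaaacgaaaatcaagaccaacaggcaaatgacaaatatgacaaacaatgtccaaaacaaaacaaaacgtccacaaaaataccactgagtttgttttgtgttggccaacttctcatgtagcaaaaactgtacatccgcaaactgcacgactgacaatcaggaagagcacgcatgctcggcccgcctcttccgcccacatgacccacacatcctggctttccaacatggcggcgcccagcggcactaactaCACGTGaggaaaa
Mybbp1a: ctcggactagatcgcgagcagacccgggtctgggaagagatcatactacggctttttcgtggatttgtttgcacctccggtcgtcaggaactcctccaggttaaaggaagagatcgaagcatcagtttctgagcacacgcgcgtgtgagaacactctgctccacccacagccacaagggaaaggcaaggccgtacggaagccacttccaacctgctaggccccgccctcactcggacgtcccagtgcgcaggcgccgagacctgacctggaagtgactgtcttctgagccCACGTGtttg
Pes1: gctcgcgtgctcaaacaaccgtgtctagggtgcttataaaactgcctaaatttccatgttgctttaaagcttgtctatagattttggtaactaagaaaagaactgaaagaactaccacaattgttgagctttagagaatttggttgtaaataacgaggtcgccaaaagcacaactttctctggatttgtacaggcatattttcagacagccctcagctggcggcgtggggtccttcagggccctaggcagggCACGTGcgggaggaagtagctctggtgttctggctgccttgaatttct
The other 2 windows with CACGTG were those of Wdr43 and Tsr1. Of the 6 genes with an E-box, 3 were called higher with stimulation in WT cells, and of the 26 genes with a window without one, 18 were (medians of 0.80 and 1.05 on the log2 scale). Of the other motifs, GGGCGG, the GC box of SP factors, stood in 69.4% of the windows against 35.7% of all windows, TGGAAA, the core of NFAT sites, in 38.9% against 21.4%, and TGACGTCA, the site of CREB and ATF factors, in the windows of Noc4l and Ppan (5.56% against 1.79%). GCATGCGC, a core of NRF1 sites, and TGANTCA, the AP-1 site, stood in none of the 36 windows and in 2.71% and 7.81% of all windows. Motifs were counted one by one on both strands, matches may overlap one another, and a match is a description of the letters only.

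To ask how the machinery responded to T cell receptor stimulation, the stimulated and the unstimulated libraries of each genotype were compared. Most of the 37 genes were higher after stimulation in both genotypes. Further genes of the pathway, given below, had smaller median changes in both. In WT cells, 24 of 37 genes (64.9%) were called higher and 0 were called lower, where 10.2% of all tested genes were called higher and 13.1% lower. In DKO cells, 26 of 37 (70.3%) were called higher and 0 lower, against 13% and 12% of all tested genes. Called means past 1.5-fold with an adjusted p below 0.05, from limma on log2 of the normalized count plus 1 with Benjamini-Hochberg adjustment over the 15419 genes. With no adjustment, limma had 0 of the 37 lower at p below 0.05, and edgeR and DESeq2 also called 0 lower. The median log2 fold change of the 37 genes was 1.03 in WT and 1.16 in DKO cells, where the medians of all tested genes were 0.01 and -0.03. With libraries rescaled to equal totals the medians were 1.55 and 1.55, where those of all tested genes were 0.52 and 0.35.
Both stimulated libraries lay above both unstimulated libraries for 34 of 37 genes (91.9%) in WT and for 29 (78.4%) in DKO cells, against 35% and 30.8% of all tested genes. The 22 genes called in both genotypes included all 4 box H/ACA proteins and all 9 large subunit assembly factors. Polr1a and Bysl were called in WT cells only, Polr1c, Rrp9, Ddx21 and Pes1 in DKO cells only, and 9 genes in neither. No gene was called by the test of the difference in response, given with the interaction below. That test called 0 of all 15419 tested genes with 2 libraries a group, so it cannot show that responses were equal.
With a library left out, its group holds 1 library. The number of calls was then lower in every fit in WT and in some in DKO cells. It was 10 in WT without unstimulated WT replicate 4, 11 without either stimulated WT replicate, and 16 in DKO without stimulated DKO replicate 1, while the medians stayed at 0.83 or above. Of the 24 genes called in WT, 9 were called whichever library was left out (Nhp2, Gar1, Nop10, Wdr12, Nop2, Polr1b, Rrp1b, Utp20 and Noc4l), and 7 were called in none of these 4 fits, among them Polr1a and Dkc1. In DKO cells 16 of 26 were called whichever library was left out.

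**Figure D1:**
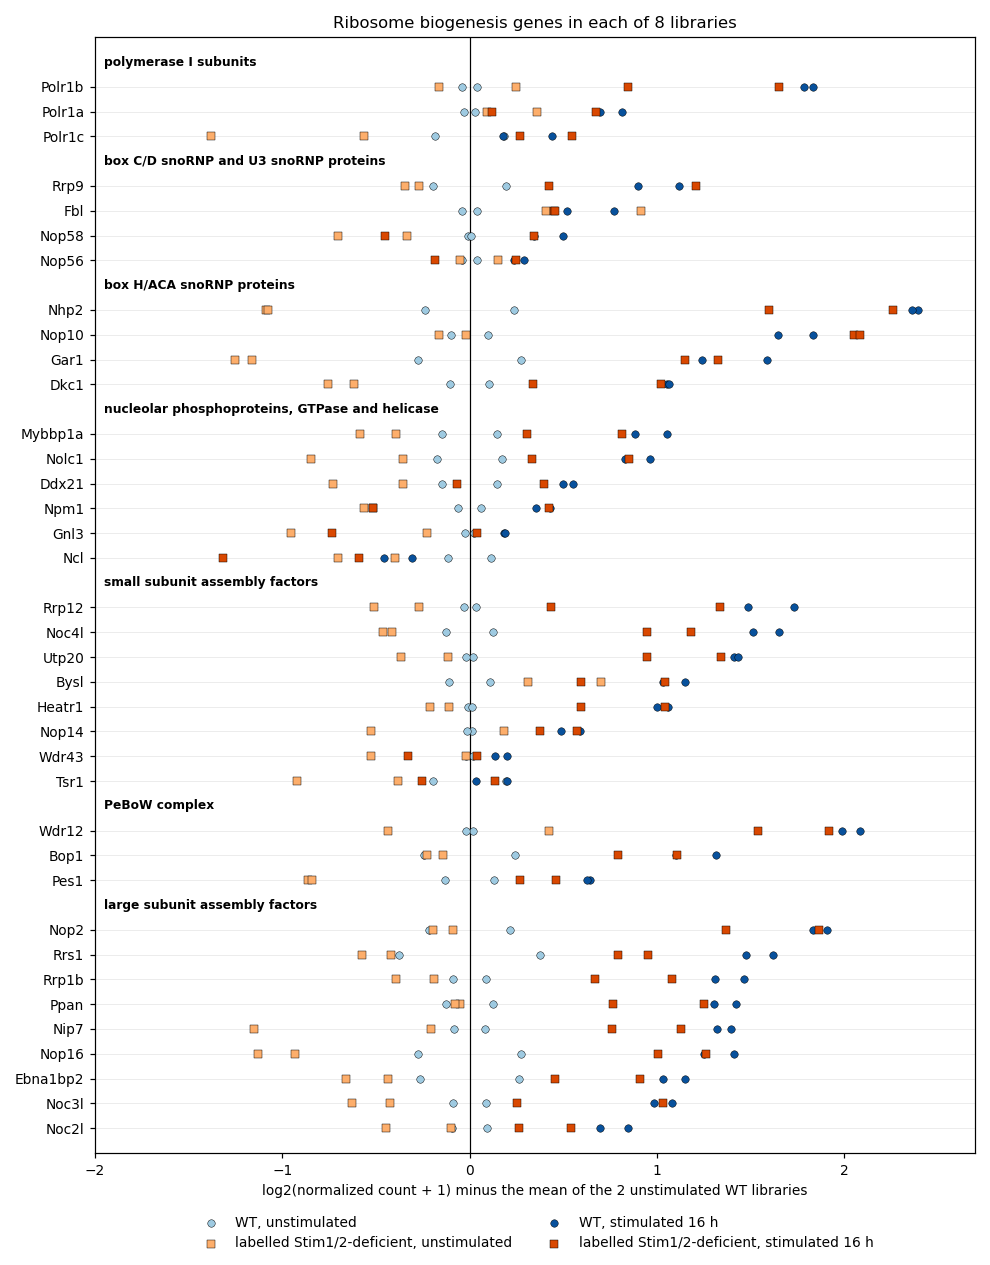
Level of each of the 37 genes in each of the 8 libraries, on the x axis as log2 of the normalized count plus 1 minus the mean of the 2 unstimulated WT libraries, with genes grouped by role. Each point is 1 library, circles are WT, squares are libraries labelled Stim1/2-deficient, and dark symbols are stimulated. Dark symbols lie to the right for most genes, Ncl lies to the left, and Nhp2, Nop10 and Wdr12 reach the highest values.

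Among the 3 subunits of RNA polymerase I, Polr1a, the largest and catalytic subunit, had 1252 and 1201 normalized counts in unstimulated and 2154 and 1989 in stimulated WT libraries. In DKO libraries it had 1309.7 and 1575 without and 1962 and 1331 with stimulation. The stimulated WT libraries were thus both above the unstimulated ones, whereas those of DKO cells overlapped. Its log2 fold change with stimulation was 0.76 in WT (SE 0.22, limma adjusted p = 0.0302) and 0.17 in DKO cells (SE 0.22, limma adjusted p = 0.592).
Polr1b, the other large subunit, was called higher in both genotypes. It rose from 174.8 and 185 to 621 and 642 normalized counts in WT and from 214 and 160.3 to 568 and 323 in DKO libraries. Polr1c, a subunit shared with RNA polymerase III, had 476 and 369 normalized counts in unstimulated and 475 and 569 in stimulated WT libraries, which overlapped. In DKO libraries it had 160.4 and 283 without and 506 and 614 with stimulation and was called higher.

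The box C/D proteins, which carry out ribose methylation of ribosomal RNA, included the fewest calls. Of Nop56, Nop58, the methyltransferase Fbl and Rrp9, a protein of the U3 particle that takes part in early cleavage, 0 were called in WT and Rrp9 alone in DKO cells, with 2 and 1 of the 4 past 1.5-fold and an unadjusted p of 0.05. In WT cells edgeR and DESeq2 on all libraries also called 0 of them, and DESeq2 on the 4 WT libraries called Rrp9. Nop58, the one with the most counts, had 5303 and 5350 normalized counts in unstimulated and 7536 and 6761 in stimulated WT libraries, and 3268 and 4228 against 6755 and 3898 in DKO libraries. Its stimulated DKO replicate 2 lay within the range of the unstimulated DKO libraries. The log2 fold changes of Nop58 were 0.42 in WT (SE 0.25, limma adjusted p = 0.245) and 0.46 in DKO cells (SE 0.25, limma adjusted p = 0.195).
Rrp9 had the lowest mean count of the 37 genes. Its normalized counts were 79.9 and 60.6 in unstimulated and 152 and 130.6 in stimulated WT libraries, and 54.5 and 57.4 against 162 and 93.7 in DKO libraries. The groups did not overlap in either genotype, with log2 fold changes of 1.01 (SE 0.37, limma adjusted p = 0.0719) and 1.13 (SE 0.37, limma adjusted p = 0.0474). The call of Rrp9 in DKO cells was lost without either unstimulated DKO replicate and without stimulated DKO replicate 1 (adjusted p from 0.106 to 0.238). It was also lost in 4 of 12 other fits, with every gene above 0 (adjusted p = 0.0753), equal upper quartiles (0.0635) and DESeq2 or limma on the 4 DKO libraries (0.129 each). The log2 fold change of Fbl was 0.65 in WT (limma adjusted p = 0.115) and -0.21 in DKO cells (limma adjusted p = 0.606), and the latter was 0.18 with libraries rescaled to equal totals.

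All 4 box H/ACA proteins, which convert uridines of ribosomal RNA to pseudouridines and also bind telomerase RNA, rose in both genotypes. Nhp2, a core protein of the particle, had the largest change of the 37 genes in WT cells. It had 267 and 192 normalized counts in unstimulated and 1192 and 1166 in stimulated WT libraries, and 106 and 107 against 1089 and 686 in DKO libraries. The groups were far apart, with log2 fold changes of 2.38 in WT (SE 0.27, limma adjusted p = 7.6e-04) and 3.01 in DKO cells (SE 0.27, limma adjusted p = 2.4e-04).
Gar1, another core protein, had 599 and 408 normalized counts in unstimulated and 1172 and 1491 in stimulated WT libraries. In DKO libraries the counts were 207 and 220.4 without and 1239.5 and 1099 with stimulation. The stimulated libraries of both genotypes overlapped and the unstimulated ones did not. Its log2 fold change was 1.42 in WT (SE 0.24, limma adjusted p = 0.00354) and 2.45 in DKO cells (SE 0.24, limma adjusted p = 3.1e-04).
Dkc1, the pseudouridine synthase, had 1929.5 and 1671 normalized counts in unstimulated and 3734 and 3759 in stimulated WT libraries. In DKO libraries it had 1171 and 1063 against 3654 and 2269. Its log2 fold changes were 1.06 in WT (SE 0.23, limma adjusted p = 0.00970) and 1.37 in DKO cells (SE 0.23, limma adjusted p = 0.00282). Nop10, the smallest protein of the particle, rose by 1.74 and 2.16 on the log2 scale (limma adjusted p = 0.00130 and 3.9e-04).

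Of the 6 nucleolar phosphoproteins, GTPase and helicase, 2 were called higher in WT (Nolc1, a chaperone of small nucleolar particles, and Mybbp1a) and 3 in DKO cells (the same and the helicase Ddx21). Ncl, nucleolin, which binds nascent ribosomal RNA, had 62153 and 53179 normalized counts in unstimulated and 46420 and 41963 in stimulated WT libraries, and was the only gene of the 37 with both stimulated WT libraries below both unstimulated ones. In DKO libraries it had 35283 and 43591 without and 38130 and 23085 with stimulation, which overlapped. Its log2 fold changes of -0.38 in WT (SE 0.25, limma adjusted p = 0.292) and -0.40 in DKO cells (SE 0.25, limma adjusted p = 0.258) did not pass the test and became 0.14 in WT with equal totals, and 0.28 and 0.07 with quantile normalization.
Nucleophosmin (Npm1), a histone and ribosome chaperone, and nucleostemin (Gnl3), a nucleolar GTPase, were called in neither genotype. Their log2 fold changes were 0.39 and 0.19 in WT and 0.50 and 0.24 in DKO cells. Npm1 has processed copies in the genome, and reads shared with them are uncertain.

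Among the 8 small subunit assembly factors, 5 were called higher in WT (Heatr1, Utp20, Rrp12, Bysl and Noc4l) and 4 of these, all but Bysl, in DKO cells. The log2 fold changes in WT ran from 0.12 for Tsr1 to 1.61 for Rrp12, a factor for export of the subunits. Wdr43, a component of the early processome and the gene of this role with the most counts, had 4054 and 3940 normalized counts in unstimulated and 4598 and 4400 in stimulated WT libraries. In DKO libraries it had 2770 and 3951 against 4109 and 3177. The difference in WT was small though without overlap, with a log2 fold change of 0.17 (SE 0.21, limma adjusted p = 0.590), and that in DKO cells was 0.13 (SE 0.21, limma adjusted p = 0.684).
Tsr1, which acts late in the maturation of the small subunit, had 1101 and 838 normalized counts in unstimulated and 1103 and 983 in stimulated WT libraries. In DKO libraries it had 506 and 737 against 1055 and 805. The log2 fold changes were 0.12 (SE 0.25, limma adjusted p = 0.766) and 0.59 (SE 0.25, limma adjusted p = 0.106), with overlap in WT only.

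Pes1, Bop1 and Wdr12 form the PeBoW complex, which is needed for maturation of the large subunit. Wdr12 had 315 and 307 normalized counts in unstimulated and 1325 and 1238 in stimulated WT libraries, and 417 and 229.7 against 1181 and 908 in DKO libraries. The log2 fold changes were 2.04 (SE 0.28, limma adjusted p = 0.00168) and 1.74 (SE 0.28, limma adjusted p = 0.00251). Pes1 had 515 and 429.9 normalized counts in unstimulated and 737 and 727 in stimulated WT libraries, and 258 and 262 against 647 and 567 in DKO libraries. Its groups did not overlap in either genotype, and its log2 fold changes were 0.64 in WT (SE 0.21, limma adjusted p = 0.0504) and 1.22 in DKO cells (SE 0.21, limma adjusted p = 0.00320). In WT, Pes1 was called in 9 of 12 other fits and in 0 of 4 limma fits with a library left out, with adjusted p from 0.00289 to 0.276. Bop1 was called in both genotypes.

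The 9 large subunit assembly factors all rose in both genotypes, by 0.77 to 1.87 on the log2 scale in WT and by 0.68 to 2.17 in DKO cells. Nop2, an RNA methyltransferase, had 344 and 256 normalized counts in unstimulated and 1118 and 1061 in stimulated WT libraries, and 259 and 279 against 1083 and 767 in DKO libraries. The log2 fold changes were 1.87 (SE 0.24, limma adjusted p = 0.00126) and 1.76 (SE 0.24, limma adjusted p = 0.00124). Rrp1b, the one with the most counts, had 939 and 832 normalized counts in unstimulated and 2444 and 2194 in stimulated WT libraries, and 776 and 673 against 1868 and 1407 in DKO libraries, with log2 fold changes of 1.39 (SE 0.20, limma adjusted p = 0.00210) and 1.16 (SE 0.20, limma adjusted p = 0.00348).
Rrs1, an early factor of the large subunit, had 100.4 and 59.1 normalized counts in unstimulated and 238 and 216 in stimulated WT libraries, and 51.4 and 57.4 against 150.1 and 134 in DKO libraries. The unstimulated WT libraries of Rrs1 lay farther apart than those of any other of the 37 genes. In WT, the calls of Rrs1 and Nop16 stood in 1 of the 4 fits with a library left out, that without unstimulated WT replicate 3. Nop16 rose by 1.33 in WT and by 2.17 in DKO cells on the log2 scale (limma adjusted p = 0.00892 and 9.2e-04).

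**Figure D2:**
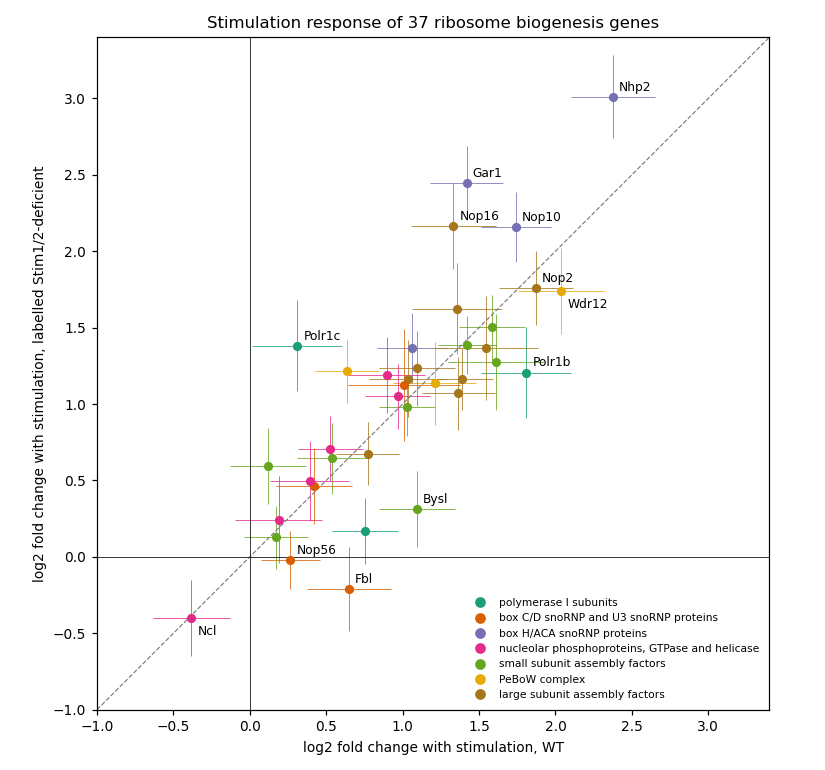
Log2 fold change with stimulation in WT (x axis) and in cells labelled Stim1/2-deficient (y axis) for each of the 37 genes, coloured by role. Points are limma estimates, bars are standard errors, and the dashed line marks equal values. Points lie on both sides of the line, with Gar1, Nhp2, Nop16 and Polr1c above it and Polr1b, Bysl and Fbl below it.

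The second question was whether the level of these genes differed between the libraries labelled DKO and WT in cells without stimulation. Most of the 37 genes had negative estimates that did not pass the test. Called lower were 2 of 37 (5.41%), box H/ACA protein Gar1 and PeBoW protein Pes1, and 0 were called higher. That share is near the 3.35% of all tested genes called lower, and 1.38% of them were called higher. At an unadjusted p under 0.05, 12 were lower and Fbl was higher in limma, and edgeR and DESeq2 called 0 higher. The estimate was below 0 for 32 of 37 genes, with a median log2 fold change of -0.44, against -0.01 for all tested genes. Both DKO libraries were below both WT libraries for 25 genes (67.6%), where 27.1% of all tested genes lay so, and above them for 3 (8.11%), against 26.5%.
Without WT replicate 3 the median was -0.28, and without either WT replicate 0 genes were called in limma. The median was -0.35 without DKO replicate 1 and -0.51 without DKO replicate 2, which held the most and the second most macrophage and B cell markers among the unstimulated libraries. The part of these other cells, or of the lower level of Treg and T cell markers, in the result was not tested, and fewer cells of a type and less RNA per cell cannot be told apart in such pools. Under the other scalings the median was between -0.43 and -0.28, where that of all tested genes moved to 0.11 with equal totals and to 0.15 with equal upper quartiles.

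Gar1 (chr3:129824912-129831407, GRCm38.p6) had 599 and 408 normalized counts in the unstimulated WT and 207 and 220.4 in the unstimulated DKO libraries, a log2 fold change of -1.21 (SE 0.24, limma adjusted p = 0.0246). It was called in 11 of 12 other fits, and in 2 of the 4 fits that left out a library, those without a DKO replicate. Without WT replicate 3 or 4 its adjusted p was 0.299 and 0.0698, the adjusted p ranged from 4.8e-04 to 0.299 over the alternatives, and the fold change stayed between -1.49 and -0.93.
Pes1 (chr11:3963975-3980004), with 515 and 429.9 against 258 and 262 normalized counts, had a log2 fold change of -0.85 (SE 0.21, limma adjusted p = 0.0476). Its DKO libraries were nearly equal. It was called in 4 of 12 other fits and in 1 of 4 with a library left out, without DKO replicate 2, and its adjusted p ranged from 0.0164 to 0.408.
Next by adjusted p, with larger changes than Pes1, were Nhp2, with 267 and 192 against 106 and 107 normalized counts and a log2 fold change of -1.08 (SE 0.27, limma adjusted p = 0.0524), Nop16 at -1.03 (limma adjusted p = 0.0677) and Polr1c at -0.97 (limma adjusted p = 0.0913). DESeq2 on all libraries called Nhp2 and Nop16 beside Gar1 and Pes1, 4 genes in all, and without DKO replicate 2 limma called Polr1c and Nip7 in addition to Gar1 and Pes1.

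By role, all 6 nucleolar proteins had both DKO libraries below both WT libraries, with log2 fold changes of -0.60 to -0.49 that did not pass the test. For Ncl the value was -0.55 (SE 0.25, limma adjusted p = 0.228). All 9 large subunit factors had estimates below 0, from -1.03 to -0.06, in the scaling as deposited. Of the box H/ACA proteins, Dkc1 was at -0.69 (SE 0.23, limma adjusted p = 0.113) and Nop10 at -0.09 with overlapping libraries. Of the small subunit factors, 7 of 8 had estimates below 0, among them Tsr1 at -0.65 (limma adjusted p = 0.161) and Wdr43 at -0.27 (limma adjusted p = 0.487).
The signs of estimates near 0 rested on the scaling. With equal upper quartiles, Nop2, Ppan, Nop10, Heatr1 and Wdr12 turned positive, which left 27 genes below 0. With equal totals, Ppan, Nop10 and Wdr12 turned positive, which left 29, and with quantile normalization Ppan and Wdr12 did, which left 30.
In the scaling as deposited, positive estimates came from Fbl, Bysl, Polr1a, Nop56 and Polr1b. Fbl had 146 and 137 normalized counts in WT and 267 and 188 in DKO libraries, a log2 fold change of 0.66 (SE 0.28, limma adjusted p = 0.192). Bysl, a factor of small subunit assembly, had 295 and 253 against 445 and 339 (0.51, SE 0.25, limma adjusted p = 0.260). For Fbl, Bysl and Polr1a both DKO libraries lay above both WT libraries.
Wdr12, whose DKO libraries held 417 and 229.7 normalized counts around the 315 and 307 of WT, gave no direction, with -0.01 in the reported fit and 0.06 to 0.16 in 6 of the other fits.

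**Figure D3:**
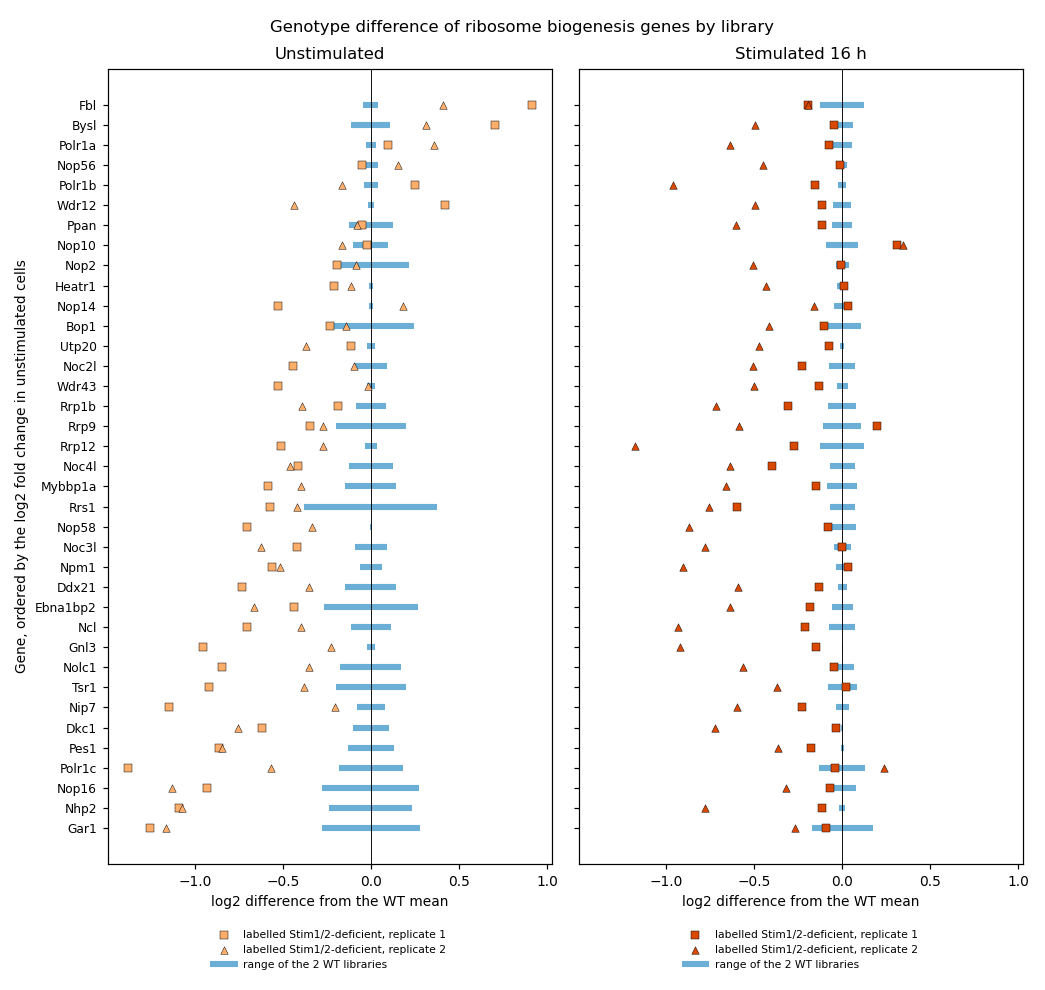
Difference of each library labelled Stim1/2-deficient from the WT mean, in log2 of the normalized count plus 1, for the 37 genes in unstimulated (left) and stimulated cells (right). Squares are replicate 1, triangles are replicate 2, and blue bars span the 2 WT libraries. Genes are ordered by the estimate in unstimulated cells, from Gar1 and Nhp2 at the bottom to Fbl and Bysl at the top, and on the right the triangles lie left of the squares for 34 of 37 genes.

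The same comparison was made after stimulation. Of the 37 genes, 0 were called in limma, where 0.11% of all tested genes were called lower and 0.162% higher, and edgeR and DESeq2 also called 0. At an unadjusted p under 0.05, Rrp12, Rrp1b, Noc4l and Ncl were lower and 0 were higher. The estimate was below 0 for 35 of 37 genes, all but Nop10 and Polr1c, with a median of -0.36 against 0.02 for all tested genes. Both DKO libraries were below both WT libraries for 22 genes (59.5%), against 23.1% of all tested genes. 
The size of the median rested mainly on stimulated DKO replicate 2. In that library 35 genes lay below both WT libraries, with a median difference of -0.58 from the WT mean. In replicate 1 it was 22 genes with a median of -0.10. Without replicate 2, the estimates of 31 of 37 genes were still below 0. Of all tested genes, 38.6% lay below both WT libraries in replicate 2 and 34.2% in replicate 1. The median genotype difference was -0.58 without replicate 1, when Npm1 was called lower, and -0.10 without replicate 2. Between the 2 replicates, 34 of 37 genes were higher in replicate 1, by a median of 0.45, where 49.4% of all tested genes were higher. The 2 stimulated WT libraries were closer, with 22 of 37 genes higher in replicate 1 and a median gap of 0.05.
Rrp12 had 463 and 550.5 normalized counts in stimulated WT and 417 and 223 in stimulated DKO libraries, a log2 fold change of -0.73 (SE 0.32, limma adjusted p = 0.344). For Ncl, with 46420 and 41963 against 38130 and 23085, it was -0.57 (SE 0.25, limma adjusted p = 0.345). Gar1 and Pes1 were at -0.18 and -0.27 after stimulation (limma adjusted p = 0.801 and 0.626). Nop10 was the only gene with both DKO libraries above both WT libraries, at 660 and 675 against 567 and 499 normalized counts (0.33, SE 0.23, limma adjusted p = 0.583).

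An interaction term in the same model asked whether genotype and stimulation combined. None of the 37 genes passed (lowest limma adjusted p = 0.556, 0 called by limma, edgeR and DESeq2), as 0% of all tested genes did. At an unadjusted p under 0.05, Gar1 and Polr1c had positive interactions, 1.03 (SE 0.34) and 1.07 (SE 0.42) on the log2 scale, and Bysl a negative one of -0.78 (SE 0.35). For Gar1 this is the step from a log2 fold change of 1.42 with stimulation in WT to 2.45 in DKO cells. The median interaction of the 37 genes was 0.04, near that of all tested genes, 0.05, and lay between -0.16 and 0.06 under the other scalings and tests, with -0.24 without stimulated DKO replicate 1 and 0.34 without stimulated DKO replicate 2, so no direction can be given for it. In both states 30 genes had negative genotype estimates, which use separate libraries in the 2 states.

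Further genes of the pathway were set beside these 37. Of all tested genes, 10.2% were called higher and 13.1% lower with stimulation in WT, and 13% and 12% in DKO cells. Of 46 other small subunit factors, 11 were called higher and 1 lower with stimulation in WT cells and 13 higher in DKO cells. Of 53 other large subunit factors, 18 were called higher and 5 lower in WT, and 16 higher and 1 lower in DKO cells. The medians in WT were 0.34 and 0.43, against 1.03 for the 37 genes. The RNA exosome, which trims the ends of precursor RNAs, had 3 of 13 subunits and cofactors called higher in WT and 9 in DKO cells. Of 13 other polymerase I subunits and initiation factors, 2 and 4 were called higher, and of 79 cytosolic ribosomal proteins, 20 and 31 were called higher and 0 and 1 lower.
Between unstimulated genotypes, 41 of 46 other small subunit factors and 43 of 53 other large subunit factors had estimates below 0, with medians of -0.29 in both lists. Of all tested genes, 50.35% had estimates below 0 and 3.35% were called lower. In the 2 lists the calls were as follows. None of the former was called (0, with 3 lower past 1.5-fold and an unadjusted p of 0.05 in limma, 0 called by edgeR and 2 by DESeq2 on all libraries), and Eif6 and Rrp15 of the latter were called lower. Eif6, which keeps the subunits apart, had 522 and 476 normalized counts in WT and 177 and 300.5 in DKO libraries, a log2 fold change of -1.11 (SE 0.27, limma adjusted p = 0.0474), which was called in 4 of 12 other fits. Rrp15 had 202 and 201 against 93.3 and 97.5, a log2 fold change of -1.07 (SE 0.25, limma adjusted p = 0.0406), and was called in 6 of 12. The exosome cofactor Mphosph6 had 408 and 350.1 against 149.9 and 180.3 (-1.20, SE 0.25, limma adjusted p = 0.0291) and was called in 10 of 12. Each of these 3 genes was called in 1 of the 4 fits with a library left out, that without DKO replicate 2.
The ribosomal proteins had estimates on both sides of 0. Their median was -0.05, 37 of 79 had estimates above 0, and Rps13 was called higher, with 438 and 397 against 1212 and 776 normalized counts (1.22, SE 0.25, limma adjusted p = 0.0291, called in 10 of 12 other fits and in 1 of 4 with a library left out). Reads of ribosomal protein genes may be shared with processed pseudogenes, so the value of Rps13 is uncertain.

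Myc itself rose with stimulation in both genotypes and was not called between them. It had 1128 and 1077 normalized counts in unstimulated and 4677 and 5418 in stimulated WT libraries, and 1573 and 892 against 4710 and 4725 in DKO libraries. The log2 fold changes with stimulation were 2.19 in WT (SE 0.25, limma adjusted p = 7.3e-04) and 1.99 in DKO cells (SE 0.25, limma adjusted p = 7.7e-04). Between genotypes they were 0.10 (SE 0.25, limma adjusted p = 0.850) without and -0.09 (SE 0.25, limma adjusted p = 0.912) with stimulation, and these became -0.30 without unstimulated DKO replicate 1 and 0.01 without stimulated WT replicate 2.
Proliferation markers were lower in unstimulated DKO libraries. Of 16, 14 were called lower in unstimulated DKO libraries, with a median of -2.24, against 3.35% of all tested genes. With stimulation 0 were called lower, where 0.11% of all tested genes were. The median was then -1.38, and 12 were lower past 1.5-fold at an unadjusted p under 0.05 in limma. In both states all 16 had both DKO libraries below both WT libraries, against 27.1% and 23.1% of all tested genes. After stimulation edgeR called 0 and DESeq2 on all libraries 6. Cdk1, the kinase of mitotic entry, had 319 and 225 normalized counts in unstimulated WT and 47.2 and 12.02 in unstimulated DKO libraries (-3.42, SE 0.64, limma adjusted p = 0.0201), and was not called without either WT replicate. The part of the proliferation difference in the values of the ribosome biogenesis genes was not tested.

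**Figure D4:**
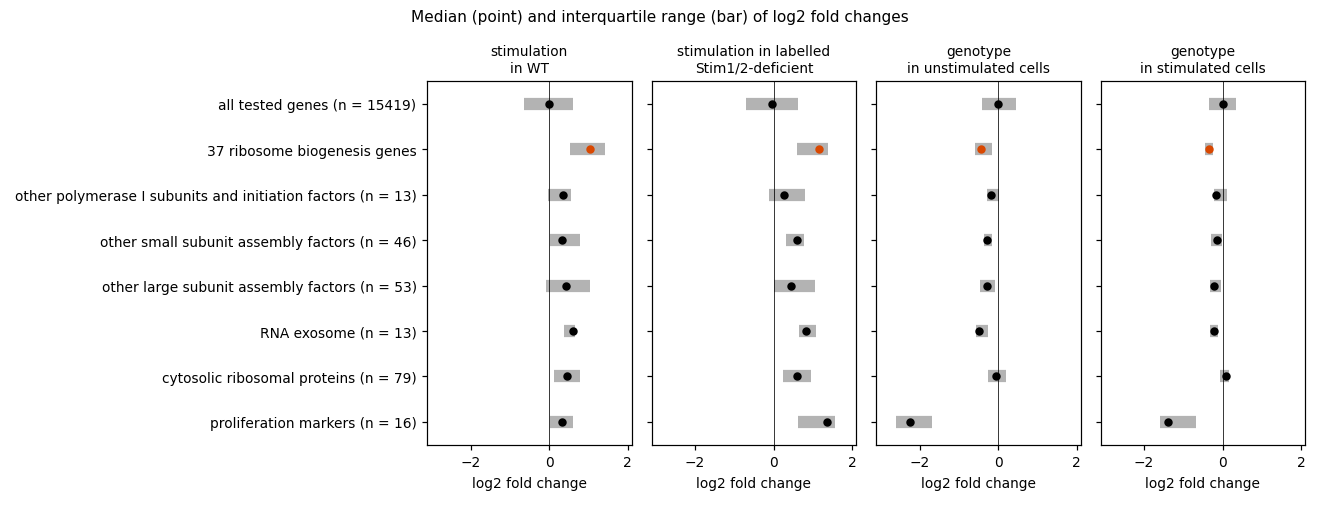
Median log2 fold change (points) and interquartile range (bars) of the 37 ribosome biogenesis genes, of all tested genes and of other lists, in 4 comparisons from stimulation in WT (left) to genotype in stimulated cells (right). The 37 genes have medians of 1.03 and 1.16 with stimulation and -0.44 and -0.36 between genotypes, and proliferation markers have the lowest genotype medians, -2.24 and -1.38.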

How the data were processed

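RNA of 8 libraries in 4 groups was analysed. The deposited signal values are reads on a gene over a size factor of the library, which the authors rounded to 2 decimals. The methods of the study name Bowtie, NCBIM37, Picard, HTSeq, DESeq2 and an unstranded kit, whereas the submitters' processing notes and labels name bcl2fastq 1.8.4, STAR 2.7, mm10, DESeq2 and a stranded kit, so the aligner, the build and the use of strand are uncertain. Within a tolerance of 0.006 normalized counts, 100% of the values came to whole reads, and these reads were used in edgeR and DESeq2.

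In R 4.3.3, limma 3.58.1 (lmFit, then eBayes with its trend option) was run on log2 values with 1 added, for the 15419 genes that averaged 10 or more normalized counts, with a shared spread over the 4 groups. Tests were 2-sided. Fold changes are on this log2 scale and understate changes of low genes. The p-values measure the spread between the 2 libraries within groups. Each library came from pooled mice, and whether groups shared a pool is not known. Alternatives were pseudocounts of 0.1 and 5, no filter beyond a value above 0, a filter at 100, equal totals, equal upper quartiles, quantile normalization, TMM factors, edgeR 4.0.16 (quasi-likelihood), DESeq2 1.42.0, fits to 4 libraries only, a replicate block, other thresholds and each library left out in turn. The scripts were tested on simulated data.

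The 37 genes, the other lists and the rule for named genes were chosen with earlier results of these data known. Values in every library are given for genes called between genotypes, the 3 largest and 3 smallest stimulation changes in WT, the gene with the highest mean in each role and the 2 with the lowest mean. Of the other lists, Myc and the called gene with the largest change per list and genotype comparison are named. Others named (Polr1b, Polr1c, Fbl, Bysl, Nop10, Nop16, Nip7, Rrp12, Noc4l, Rrp15, Ctla4, Ikzf2, Cd3e, Cd4, Mnt, Mxd1, Mxd4, Mxi1 and those given by role) were chosen after their values were seen. Of the 6 marker lists, CD8 T and NK cell markers summed to 202 to 802, erythroid markers to 32.4 to 217 and neutrophil markers to 124 to 1085 normalized counts per library, each with its highest or second highest value in unstimulated DKO replicate 1. The MYC network list had 1 of 9 genes, Myc, called higher with stimulation in both genotypes, against 10.2% and 13% of all tested genes. Called lower were 4 in WT (Mnt, Mxd1, Mxd4 and Mxi1) and 2 in DKO cells (Mnt and Mxd4), against 13.1% and 12%. Between genotypes 0 were called by limma and edgeR, with 1 higher after stimulation by DESeq2. After stimulation 5 of the 9 estimates were above 0 and 4 below. Mxd1 had 1049 and 986 normalized counts in stimulated WT and 3012 and 4507 in stimulated DKO libraries.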

Additional observations from a re-analysis of the deposited data

Results flagged for a closer look

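Polr1a and Fbl were picked out because the difference between genotypes pointed in opposite directions in the 2 states without overlap of libraries. Both unstimulated DKO libraries were above both unstimulated WT libraries, and both stimulated DKO libraries were below both stimulated WT libraries. Of all tested genes, 26.5% lay above in this way without stimulation and 23.1% lay below with stimulation. The share of all genes with both was not counted, so these 2 genes cannot be set apart from the background. For Polr1a the log2 fold change between genotypes was 0.23 without and -0.36 with stimulation, an interaction of -0.58 (SE 0.31, limma adjusted p = 0.640). For Fbl it was 0.66 and -0.19, an interaction of -0.86 (SE 0.39, limma adjusted p = 0.614). Neither interaction passed the test. With 2 libraries in a group, no library could be tested as an outlier.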

How the results depend on the processing

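With equal totals the median stimulation change of the 37 genes was 1.55 in WT and 1.55 in DKO cells, where those of all tested genes were 0.52 and 0.35. Fitting limma to 4 libraries gave 17 genes called higher in DKO cells. Between unstimulated genotypes, 1 gene was called lower with a pseudocount of 0.1, every gene above 0, equal totals, upper quartiles, quantile normalization, edgeR, DESeq2 on 4 libraries or a 2-fold threshold, 4 with DESeq2 on all libraries and 0 with limma on 4 libraries. With unadjusted p and 1.5-fold, 9 were lower and 1 higher, 1 was lower after stimulation, and the interaction had 2 higher and 1 lower. With a library left out, 10 to 17 genes were called with stimulation in WT and 16 to 27 in DKO cells, with DKO medians of 0.83 to 1.32. Lower genes numbered 0 to 4 in unstimulated and 0 to 1 in stimulated cells, with medians of -0.58 to -0.10 in the latter and interaction medians of -0.24 to 0.34.

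Directions changed for some genes. The stimulation change of Ncl was 0.14 with equal totals and 0.28 with quantile normalization in WT and 0.075 with the latter in DKO cells, and that of Fbl in DKO cells was 0.18 with equal totals. Between unstimulated genotypes, 27, 29 and 30 genes were below 0 with upper quartiles, equal totals and quantile normalization, against 32 as deposited. Ppan turned positive in all 3, Nop10 in the first 2 and Heatr1 in the first, Nop2 was at 0.021 with upper quartiles, and Wdr12 at 0.11, 0.16, 0.12, 0.073, 0.060 and 0.058 with equal totals, upper quartiles, quantile normalization, edgeR and DESeq2 on 8 and on 4 libraries. With a library left out, stimulation changes ran from -0.081 to 0.31 for Tsr1 in WT, and in DKO cells from -0.13 to 0.38 for Wdr43, -0.11 to 0.45 for Polr1a and -0.46 to 0.042 for Fbl. Differences between unstimulated genotypes ran from -0.36 to 0.073 for Nop2, -0.44 to 0.42 for Wdr12, -0.16 to 0.25 for Polr1b, -0.049 to 0.15 for Nop56 and -0.30 to 0.51 for Myc. Those after stimulation ran from -0.37 to 0.020 for Tsr1, -0.58 to 0.20 for Rrp9, -0.040 to 0.24 for Polr1c and -0.20 to 0.012 for Myc. Except where fewer libraries or genes were fitted, the cause was not tested.

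Replicate numbers are shared by 2 pairs of groups, too few to show pairing (r of 0.257 and 0.167 between replicate differences across 15419 genes, which are not independent). With a replicate block, 27 genes were called with stimulation in DKO cells, with a median of 1.16, and 0 between stimulated genotypes, with a median of -0.36. Unstimulated WT libraries share no number. Fits to 4 libraries cannot be made for the interaction. Counting error weighs most on Rrp9 and Rrs1, which had the lowest counts of the 37 genes.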
